A study of Mus musculus with 6 samples.

Results

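Sugar digestion and uptake in the gut run through a short chain of proteins. Disaccharidases anchored in the brush border, among them sucrase-isomaltase (Sis), trehalase (Treh) and lactase (Lct), split dietary sugars. SGLT1 (Slc5a1) then brings glucose and galactose in with sodium, GLUT5 (Slc2a5) admits fructose, and GLUT2 (Slc2a2) is the main exit at the basolateral side. Inside the enterocyte ketohexokinase (Khk) phosphorylates fructose, and fructose-1,6-bisphosphatase (Fbp1) and glucose-6-phosphatase (G6pc) carry the last steps that make free glucose. The chain is best known from the small intestine. These 9 genes were taken by name, and every probe set, the group of short probes that reports 1 transcript, whose platform symbol is one of them was described. They had 9 probe sets, for 8 of the 9 genes, among 22626 probe sets in all. Slc5a1 had a pair of probe sets and 7 genes had 1 each. Sis had no probe set under its symbol in the platform annotation used and was not analysed here.

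The proximal colon was sampled from 3 Mthfd1/+ mice, which carry 1 gene-trap allele of Mthfd1, and from 3 wild-type mice. Mthfd1 encodes a folate enzyme of the cytosol, and the trap line came from BayGenomics. Both groups were 8 weeks old and had been fed the AIN-93G control diet, a purified diet with cornstarch and sucrose as carbohydrates, for 5 weeks from weaning at 3 weeks. Each array held the amplified, biotin-labelled RNA of 1 colon. The labels name neither strain nor sex, nor where in Mthfd1 the trap lies.

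All arrays shared 1 scaling level, with medians from 156.8 to 168.2 intensity units, and there was no detection call for any probe set. Mthfd1 read 504 ± 48.4 in heterozygous and 890 ± 56.1 in wild-type colon at its brightest probe set (SD, n = 3 each), and the groups did not overlap at any of its 3 probe sets. The colon markers Car1, a carbonic anhydrase, and Slc26a3, the chloride-bicarbonate exchanger, were bright in every array. They ran from 15443 to 19084 and from 3254 to 4885. Not every listed colonocyte gene was bright, and Fxyd4 read 31.5 to 73.8, below the intensity filter. Of the listed small-intestinal enterocyte genes above the filter, 12 of 20 ranged over more than 2-fold between arrays. Of the listed colonocyte genes it was 5 of 14, among them Slc37a2, from 33.1 to 2390. The widest enterocyte genes were Apoa1 and Fabp6. Apoa1, an apolipoprotein, ran from 43.0 to 3949 in heterozygous and from 29.5 to 7712 in wild-type arrays. Fabp6, which carries bile acids in ileal cells, ran from 382 to 5622 in heterozygous and from 93.5 to 5662 in wild-type arrays. A score of the 20 listed enterocyte genes above the intensity filter, as the mean of their centred log2 values, was -0.60, 0.56 and -0.36 in heterozygous replicates 1 to 3 and 0.13, 1.06 and -0.80 in wild-type replicates 1 to 3. Wild-type replicate 2 thus stood highest and wild-type replicate 3 lowest. The median log2 difference of the 20 enterocyte genes, heterozygous minus wild-type, was -0.22, with 15 lower and 5 higher in heterozygous colon, and 0.19 without wild-type replicate 2.

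Of the sugar genes, the glucose transporter Slc5a1 was the 1 gene whose heterozygous and wild-type arrays did not overlap. Its level was lower in all 3 heterozygous colons at both probe sets, to 77.8% and 64.4% of the wild-type mean, but neither difference passed the test over all probe sets. Among all 13576 probe sets above the filter, 5.1% were likewise lower in every heterozygous array. The 2 probe sets report 1 gene and are not independent. Treh, Lct, Slc2a2 and G6pc gave low intensities throughout, below the filter. Slc2a5, Khk and Fbp1 were above it and overlapped between the genotypes. Most of these genes were highest in the same array, wild-type replicate 2.

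Slc5a1, which sets the rate of active glucose absorption, read 1762, 1802 and 1454 in the heterozygous arrays and 1949, 2659 and 1841 in the wild-type arrays at its brighter probe set. The groups did not overlap, but the gap was narrow: the highest heterozygous value lay 2.14% below the lowest wild-type value. Means were 1673 ± 190.3 in heterozygous and 2149.9 ± 444 in wild-type colon (SD, n = 3 each), so the heterozygous mean was 77.8% of the wild-type mean. The log2(intensity + 16) scale understates the change of dim genes, as for Treh, at -0.37 and, with 1 added in place of 16, -0.93. For this Slc5a1 probe set the difference was -0.35 (SE 0.16, 95% interval -0.70 to 0.01), with a limma adjusted p of 0.882 over 13576 probe sets.

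The dimmer Slc5a1 probe set read 452, 445 and 290 in heterozygous arrays against 534, 828 and 480 in wild-type arrays, again without overlap and with a gap of 5.89%. Here the heterozygous mean was 64.4% of the wild-type mean, 396 ± 91.6 against 614 ± 188 (SD, n = 3 each), and the log2 difference was -0.60 (SE 0.23, 95% interval -1.13 to -0.08). The limma unadjusted p was 0.0292 and the adjusted p 0.814. Both probe sets had the same highest array, wild-type replicate 2, and the same lowest one, heterozygous replicate 3. For either, the exact two-sided permutation p was 0.1, the smallest that 3 against 3 arrays can give.

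Wild-type replicate 2 set much of the size of the difference. Without it the log2 difference was -0.18 and -0.37 at the brighter and dimmer probe set, and without heterozygous replicate 3 it was -0.25 and -0.40. With the enterocyte score as a covariate the differences were -0.29 (SE 0.13) and -0.51 (SE 0.19), at limma adjusted p of 0.653 and 0.560. Over the 6 arrays Pearson's r of Slc5a1 with the score was 0.70 and 0.63 at the brighter and dimmer probe set. Within the 3 wild-type arrays r was 0.93 and 0.94, and within the 3 heterozygous arrays 0.41 and 0.29, in the same order. At the dimmer probe set heterozygous replicate 2 (score 0.56) read 445 and wild-type replicate 3 (score -0.80) read 480, a pair picked after the values were seen. Whether the score accounts for the difference was not tested beyond the covariate. In tissue samples, fewer epithelial cells and less transcript per cell cannot be told apart.

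Across all 13576 probe sets above the filter, 0% had a limma adjusted p under 0.05, while 771 had an unadjusted p under 0.05. The smallest limma adjusted p was 0.0583, and 0 of the 5 sugar-gene probe sets above the filter were called. Mthfd1 was not called either, although its brightest probe set stood at 56.6% of the wild-type mean without overlap. A missing call therefore does not show an unchanged level. At an unadjusted p under 0.05 with heterozygous lower, 1 of these 5 stood, against 2.56% of all. A lower value in every heterozygous than in every wild-type array was found for 2 of the 5, both of Slc5a1, against 5.1% of all. The 2 probe sets report 1 gene in the same RNA and are not independent. The median log2 difference of the 5 was -0.20, against 0.00 over all probe sets, and the 20 enterocyte genes had a median of -0.22. Without wild-type replicate 2 the median of the 5 was 0.01, with 2 of the 5 lower.

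**Figure D1:**
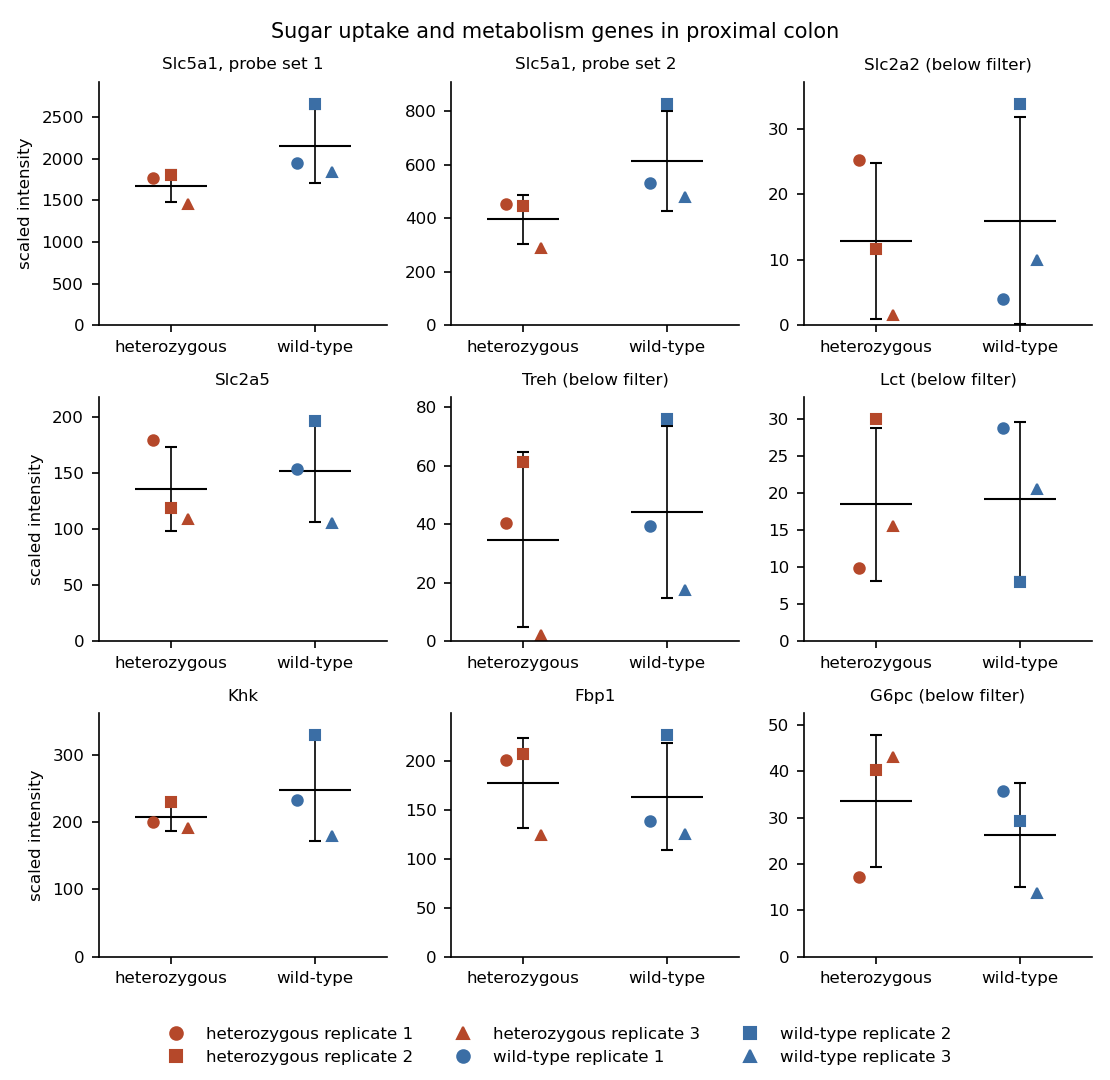
Scaled intensity (linear axes from 0) of the 9 probe sets in each heterozygous and wild-type array, 1 panel per probe set. Points are single arrays with a symbol for each replicate number, long bars are means and whiskers SD (n = 3 each). Slc5a1 shows no overlap between the groups at either probe set, and the wild-type square, replicate 2, is the highest point in 7 of the 9 panels.

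The fructose transporter Slc2a5 read 179, 119 and 109 in heterozygous and 154, 197 and 105 in wild-type arrays. The groups overlapped over nearly their whole range. The log2 difference was -0.14 (SE 0.25, 95% interval -0.70 to 0.43; limma adjusted p = 0.971), and 0.05 without wild-type replicate 2. The interval is wide enough to hold a fall or a rise.

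GLUT2, encoded by Slc2a2, read 25.2, 11.7 and 1.5 in heterozygous and 4.0, 33.8 and 10 in wild-type arrays. All 6 values lay below the filter level of 95.8, the 40th percentile of probe set means, and nothing here shows that they are above background. The exact permutation p of the difference was 0.8, and its sign turned without wild-type replicate 2 or heterozygous replicate 3.

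Trehalase, the brush border enzyme that splits trehalose, had values of 40.6, 61.4 and 2.2 in heterozygous and 39.5, 75.9 and 17.4 in wild-type arrays at the Treh probe set. The spread within each genotype exceeded the difference between them, which was -0.37 on the log2 scale (exact permutation p = 0.7). It was -0.000477 without wild-type replicate 2 and 0.26 without heterozygous replicate 3. Over the 6 arrays Treh had the widest range of the 9 probe sets, 2.34 log2 units in intensity + 16.

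Lactase, which is abundant in the suckling small intestine and declines after weaning, was dim at the Lct probe set in these adults, at 9.9, 29.9 and 15.5 in heterozygous and 28.8, 8.0 and 20.5 in wild-type arrays. Unlike the other sugar genes, Lct was lowest in wild-type replicate 2. The exact permutation p was 1.0, with a log2 difference of -0.02.

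Khk, the enzyme that commits fructose to breakdown, read 201, 230 and 191 in heterozygous and 233, 329 and 179 in wild-type arrays. The heterozygous arrays lay close together (207 ± 20.3, SD, n = 3), inside the wider wild-type range (247 ± 75.8, SD, n = 3). The log2 difference was -0.20 (SE 0.21, 95% interval -0.67 to 0.26; limma adjusted p = 0.943). It was 0.01 when wild-type replicate 2 was left out and -0.40 when replicate 3 was, so the sign and size rested on those arrays. Without wild-type replicate 3 the heterozygous values were all below the wild-type ones, as for 10.8% of all probe sets above the filter in that setting, which was chosen after seeing the data.

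Fbp1, the gluconeogenic bisphosphatase of liver, kidney and gut, read 201, 207 and 125 (heterozygous) against 139, 226 and 126 (wild-type). The values overlapped fully, and the log2 difference was 0.12 (SE 0.25, 95% interval -0.46 to 0.69; limma adjusted p = 0.975); it was 0.35 when wild-type replicate 2 was left out and -0.03 when replicate 3 was. G6pc, whose product releases free glucose, was below the filter at 17.2, 40.3 and 43.1 in heterozygous and 35.7, 29.2 and 13.8 in wild-type arrays (log2 difference 0.22, exact permutation p = 0.5). G6pc was the 1 probe set with its highest value in heterozygous replicate 3.

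**Figure D2:**
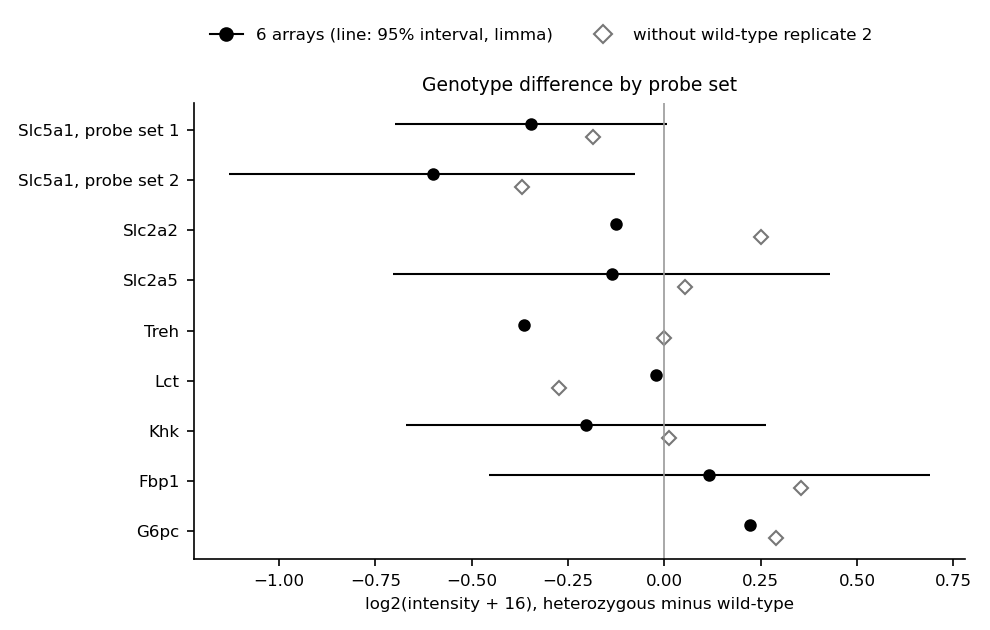
Difference in mean log2(intensity + 16), heterozygous minus wild-type, for each probe set. Filled circles use all 6 arrays, lines are limma's 95% intervals for the 5 probe sets above the filter, and open diamonds leave out wild-type replicate 2. Slc5a1 stays below 0 at both probe sets in either case, whereas Slc2a2, Slc2a5 and Khk have circles below 0 and diamonds above it. Fbp1 and G6pc lie above 0 in either case, and the diamond of Treh is at -0.000477.

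Wild-type replicate 2 was the highest array for 7 of the 9 probe sets, all but Lct and G6pc, and heterozygous replicate 3 the lowest for 5. Above the filter it was highest for 5 of 5, of which 2 report Slc5a1, against 16% of all probe sets. Below the filter it was highest for 2 of 4, Slc2a2 and Treh, against 22.5% of all. Values ranged over more than 2-fold in intensity + 16 for 3 probe sets, the dimmer one of Slc5a1 and those of Slc2a2 and Treh. Above the filter this was 1 of 5, against 8.4% of all probe sets. Below it 2 of the 4 sugar-gene probe sets ranged as widely, against 44.4% of 9050.

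The order of arrays was compared with the enterocyte score in 9 relations over 6 arrays. Khk followed it most closely, with Pearson's r = 0.93 (exact permutation p = 0.00833, Benjamini-Hochberg adjusted p = 0.0750) and Spearman's rho = 0.89 (exact permutation p = 0.0333). Without the arrays with the most extreme scores, wild-type replicates 2 and 3, r was 0.84 over 4 arrays. Slc5a1 had r = 0.70 and 0.63 at its brighter and dimmer probe sets and Treh r = 0.71, with exact permutation p from 0.117 to 0.183, and 0 of 9 relations passed the adjustment. Without the same arrays these were 0.47, 0.38 and 0.53. For Fbp1 r was 0.65 (rho 0.71), and 0.21 without those arrays; for Slc2a5 it was 0.47 and then -0.41, and for Slc2a2 0.38 and then -0.24. Lct had r = -0.03, and 0.95 without them, and G6pc had r = 0.55 and then 0.61. The score overlapped between the genotypes, and its part in the Slc5a1 difference is measured above only as a covariate.

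**Figure D3:**
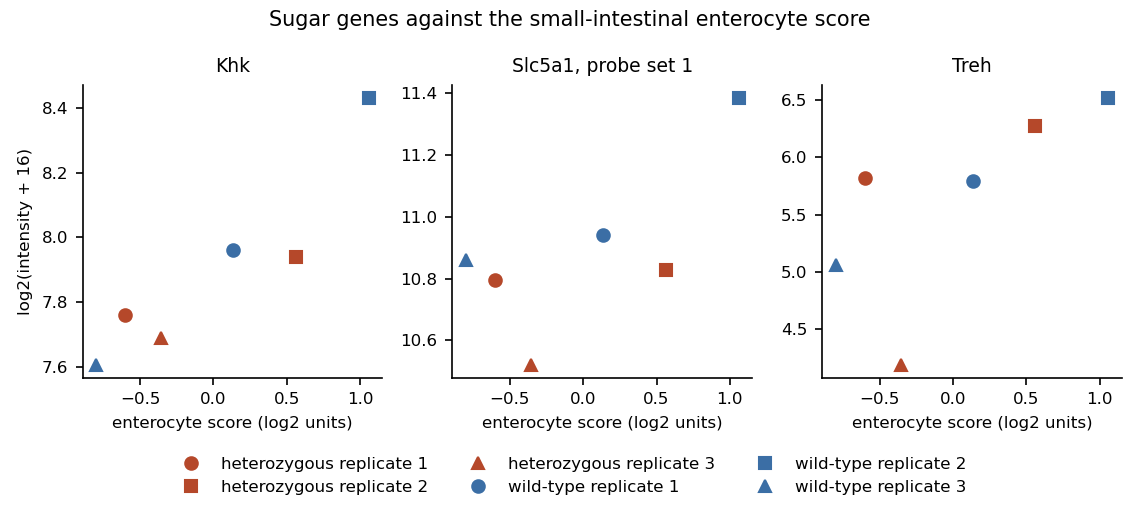
Log2(intensity + 16) of Khk, the brighter Slc5a1 probe set and Treh against the small-intestinal enterocyte score of the same array, 1 point per array. Khk climbs with the score from wild-type replicate 3 at -0.80 to wild-type replicate 2 at 1.06 (r = 0.93). Slc5a1 follows it less closely (r = 0.70). It reads lower in heterozygous replicate 2 (score 0.56) than in wild-type replicate 1 (score 0.13), a pair picked after the values were seen.

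The promoters of Slc5a1 and Khk are shown because Slc5a1 was the gene without overlap between the genotypes and Khk the one with the highest correlation with the score. Each is 250 bases before to 50 after the RefSeq start site on GRCm38.p6, 5′ to 3′ on the plus strand, at chr5:33103969-33104268 for Slc5a1 and chr5:30921309-30921608 for Khk. Capitals mark CACGTG, the E-box bound by USF proteins and, as part of a longer element, by the sugar-responsive factor ChREBP (Mlxipl), and GTTAAT, a half-site of the epithelial factor HNF1.
Slc5a1: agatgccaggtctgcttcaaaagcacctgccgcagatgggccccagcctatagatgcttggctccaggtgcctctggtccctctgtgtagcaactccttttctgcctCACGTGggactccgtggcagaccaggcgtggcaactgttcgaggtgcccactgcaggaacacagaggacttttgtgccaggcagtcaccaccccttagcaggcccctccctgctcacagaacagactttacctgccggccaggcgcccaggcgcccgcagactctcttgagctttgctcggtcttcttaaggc
Khk: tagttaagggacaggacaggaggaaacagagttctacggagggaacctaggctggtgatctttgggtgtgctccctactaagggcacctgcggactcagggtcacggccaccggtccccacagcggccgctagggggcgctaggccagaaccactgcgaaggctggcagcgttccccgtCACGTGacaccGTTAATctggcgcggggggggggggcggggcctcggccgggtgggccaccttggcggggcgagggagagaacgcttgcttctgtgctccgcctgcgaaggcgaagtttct

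CACGTG, which reads the same on both strands, stood at bases 108 to 113 of the Slc5a1 window and 180 to 185 of the Khk window. GTTAAT, searched on both strands, stood at bases 191 to 196 of the Khk window and was not found in that of Slc5a1, and the matches do not overlap. Among 32851 promoter windows of the same length, 7.15% held CACGTG and 7.10% GTTAAT. Of the 9 sugar genes, 2 held the first and 3 the second (Khk, Sis and G6pc). TTTATG, bound by CDX factors, was found on either strand in Sis and Lct (11.9% of all windows). AGATAA, which is bound by factors of the GATA family, was found on either strand in Lct and Fbp1 (11.2%). The motifs were chosen after these sequences were read, so the counts beside the shares cannot test for an excess. A match of letters is a description of the window.

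Other genes of sugar handling were read from lists, each gene by its brightest probe set, and 0 of the 44 tested passed over all probe sets. Among other hexose transporters, 7 of the 11 measured were tested, with 4 lower and 3 higher in heterozygous colon (median log2 -0.24). GLUT1 (Slc2a1), the widespread basal glucose transporter, read 1797, 2168 and 1989 in heterozygous and 2190, 2841 and 2042 in wild-type arrays (log2 -0.24, limma adjusted p = 0.917), with its highest value in wild-type replicate 2, as for Slc5a1. SGLT2 (Slc5a2) had a log2 difference of -0.41 and GLUT3 (Slc2a3) of 0.38, both with overlapping groups. The sodium-linked Slc5a4a, Slc5a4b, Slc5a9 and Slc5a11 were below the filter. Slc5a4a, Slc5a4b and Slc5a11 had their highest values in wild-type replicate 2, at 84.7, 36.2 and 42.9, and Slc5a9 had its highest in heterozygous replicate 1, at 108.2.

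Triokinase (Tkfc), which acts after Khk on glyceraldehyde, was below the filter, with 74.4, 88.2 and 51.2 in heterozygous and 100.1, 122.5 and 89.2 in wild-type arrays. Those values did not overlap, by the narrow margin of 88.2 against 89.2. The same held, with heterozygous lower, for 793 of the 9050 probe sets below the filter. Gluconeogenesis beyond the 9 genes showed 3 lower and 5 higher of 8 tested (median log2 0.03). Mdh1, malate dehydrogenase, had a log2 difference of 0.15 without overlap, Slc37a4, the transporter that feeds glucose 6-phosphate to G6pc, one of -0.15, and Pcx, pyruvate carboxylase, one of 0.21. Glycolysis genes were lower for 12 and higher for 2 of 14 tested, with a median of -0.07. Over all 13576 probe sets above the filter 6699 were lower. Some of the 12 were close to 0, such as Pgam1 (-0.00111) and Aldoa (-0.02), and a shift of the list was not tested. The largest glycolysis difference was that of Aldoc, an aldolase, at -0.60 (SE 0.27, limma adjusted p = 0.872, unadjusted p 0.0498), with overlap at heterozygous replicate 1. Pfkm had -0.29 and Hk1 -0.17.

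Among regulators, 5 were lower and 7 higher of 12 tested (median log2 0.10). Txnip, a glucose-induced arrestin that limits glucose uptake, was higher in every heterozygous array, at 6786, 6851 and 6594 against 4533, 6022 and 5759 in wild-type arrays (log2 0.32, SE 0.11, limma adjusted p = 0.752, unadjusted p 0.0163). Of all 13576 probe sets 423 were higher in heterozygous colon at a limma unadjusted p under 0.05. The share of all probe sets higher in every heterozygous array is not given here, nor for Mdh1, Amy1, Cd14 and Csf1r. Mlxipl had a log2 difference of 0.27 and Sgk1, a kinase that stimulates Slc5a1 in frog oocytes, one of 0.53, both with overlapping groups. Of 3 tested glycosidases, Amy1, an amylase, read 99.0, 147 and 103 in heterozygous and 88.9, 74.8 and 78.7 in wild-type arrays, without overlap (log2 0.43, limma adjusted p = 0.888), and Ganc and Gaa had 0.23 and 0.01.

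Markers of other cells and tissues gave the setting for these values. The small-intestinal enterocyte list had 25 of 29 genes measured, and its summed level was 32158 to 51516 in heterozygous and 31723 to 64953 in wild-type arrays. Of the 25, 20 were above the filter, and among the rest Fgf15 read 2.2 to 17.8 and Akp3 2.1 to 23.1. Of the 20, 12 ranged over more than 2-fold. Anpep was the next after Apoa1 and Fabp6, from 86.5 to 837 in heterozygous and 85.8 to 2067 in wild-type arrays. The colonocyte list (15 of 19 measured) summed to 71004 to 82135 in heterozygous and 73868 to 75149 in wild-type arrays; its widest genes were Slc37a2, Aqp4 and Aqp8. Aqp4 reached 2078 in wild-type replicate 3, against 280 to 461 in the other arrays. Paneth cell genes (4 of 7) summed to 5744 to 9358 in heterozygous and 6159 to 13138 in wild-type arrays, highest in wild-type replicate 2, where Itln1, a lectin, read 2885, Mmp7 489 and Pla2g2a 108.

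Fbp1, Khk and G6pc are also genes of liver and kidney. Of the liver markers (6 of 7 measured), 3 were above the filter, Cyp2e1, Ttr and Tat, the last at 143 to 250. The plasma proteins Fgb, at 1.4 to 3.4, and Alb, at 41.4 to 86.3, were below it. Of the kidney markers (5 of 5 measured), Kap was the 1 gene above the filter, and Umod lay between 1.2 and 25.8. Of the pancreatic markers (7 of 9 measured), Cela1, an elastase, was the 1 gene above the filter. It read 933, 918 and 854 in heterozygous and 1083, 952 and 1175 in wild-type arrays, without overlap (log2 -0.24, limma adjusted p = 0.909). Of all probe sets above the filter 5.1% were likewise lower in every heterozygous array. The other pancreatic genes, among them Ctrb1 at 2.3 to 6.5, were below the filter. Smooth muscle (6 of 6), adipocyte (3 of 5) and macrophage (5 of 5) lists had median log2 differences of -0.19, -0.06 and 0.20, and their part in the sugar-gene values was not tested. The widest-ranging markers of the other tissues, over all 6 arrays, were Cyp2e1 (1385 to 5356), Ttr (371 to 1110) and Apoh (37.1 to 89.0) for liver, Umod, Kap (66.7 to 160) and Slc22a6 (15.9 to 51.8) for kidney, and Prss2 (8.5 to 56.3), Cel (1.5 to 31.0) and Cela2a (1.3 to 30.3) for pancreas. For smooth muscle they were Cnn1 (2756 to 6034), Des (1344 to 2903) and Actg2 (6369 to 10933), all highest in wild-type replicate 3, and for adipocytes Lep (6.3 to 38.4), Fabp4 (6016 to 9795) and Adipoq (4204 to 6481). Among macrophage genes Lyz2 ranged from 1587 to 2495, and Cd14 (log2 0.45, limma adjusted p = 0.821) and Csf1r (0.27, adjusted p = 0.888) were higher in all 3 heterozygous arrays.

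The genes whose log2 values most resembled Treh over the 6 arrays, out of 1019 probe sets that ranged over more than 2-fold, were Akirin1 (r = 0.98), Cd82 (0.97), Oxct1 (0.95), Btf3 (0.95) and Hnrnpa2b1 (0.93). For the brighter Slc5a1 probe set, a search added after its values were seen, they were Tmem191c (0.98), Ppp1cb (0.98), Ace (0.98), Gfra2 (0.97) and Cyp4v3 (0.97). Ace, the brush border peptidase that makes angiotensin II, read 68.4, 88.4 and 58.9 in heterozygous and 102, 204 and 95.5 in wild-type arrays. These correlations describe 6 arrays, and each gene named here except Cd82 had its high point in wild-type replicate 2. Cd82 peaked at 151.2 in heterozygous replicate 2.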

How the data were processed

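Per the labels' protocols, total RNA of each colon was amplified with the MessageAmp II kit and labelled with biotin. The deposited table holds a linear intensity for each probe set on each array; GCOS is named in the submitters' processing notes, without version or settings. Each array's mean without its top and bottom 2% of probe sets was 500.2. Of 22690 probe sets, 64 controls were left out; 20380 of the rest had 1 gene symbol, 691 several and 1555 none, and 0 symbols were altered by the GRCm38.p6 gene table.

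Intensities entered as log2(intensity + 16) without further normalization. Probe sets with a mean at or above the 40th percentile (13576) were tested with limma 3.58.1 in R 4.3.3 (variance trend, two-sided, Benjamini-Hochberg, threshold 0.05). Member probe sets below the filter were compared by an exact permutation test of the difference in means. Correlations used all 720 pairings of 6 arrays. The fit was tested on simulated data. Alternatives covered scaling, pseudocount, filter, variance model, array weights, an enterocyte covariate, the replicate block, 1 probe set per gene and each array left out.

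The members and gene lists were chosen with earlier results of these data known, and the motifs after the sequences were read. Named are all members, up to 3 genes of each pathway list by smallest p, the 3 widest-ranging genes of marker lists, and the 5 genes most like Treh, the member with the widest range; others are named after their values were seen. Precision is limited by having 3 arrays per genotype. Replicates are separate colons per the titles.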

Additional observations from a re-analysis of the deposited data

How the results depend on the processing

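No setting gave a sugar-gene probe set a limma adjusted p under 0.05; the smallest was 0.504, for the dimmer Slc5a1 probe set with the replicate block. Over all probe sets the count past the threshold was 0, and 8 with robust variance, 4 with array weights, 8 with the enterocyte score as a covariate, 2 with 1 probe set per gene and 0 to 38 with 1 array left out (38 without heterozygous replicate 1, 2 without wild-type replicate 3). The unadjusted count of 771 became 1395 without the filter, 444 at the 60th percentile, 443 with 1 probe set per gene and 443 without heterozygous replicate 3. Same-numbered arrays deviated together at r = -0.12, 0.50 and 0.05, so the numbers were not taken as pairs; with the replicate block the Slc5a1 differences kept their values of -0.35 and -0.60, the count stayed 0 and 925 probe sets had an unadjusted p under 0.05. Not every array correlated best with its own number.

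Both Slc5a1 probe sets stayed negative in every alternative (-0.45 to -0.18 and -0.75 to -0.37). In alternatives chosen after seeing the data, with 1 array left out, the median of the 5 sugar-gene probe sets above the filter was -0.40 to 0.0118, that of the enterocyte list -0.44 to 0.188, both above 0 without wild-type replicate 2, and the Slc37a2 difference 0.27 to 2.79. With 1 array left out, log2 differences changed sign within -0.43 to 0.25 for Slc2a2, -0.35 to 0.0537 for Slc2a5, -0.79 to 0.26 for Treh, -0.27 to 0.18 for Lct, -0.40 to 0.0118 for Khk, -0.0337 to 0.35 for Fbp1 and -0.0108 to 0.49 for G6pc. Lct was 0.0804 with quantile normalization. Probe sets ranging over more than 2-fold numbered 3, 5 with quantile normalization, 5 with a pseudocount of 1 and 2 to 3 with 1 array left out. The enterocyte relation passed for 0 of 9 under a pseudocount of 1 or 64 and quantile normalization. Dim probe sets below the filter have no detection call, which limits Slc2a2, Treh, Lct and G6pc.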

Other observations

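A sugar-phosphate transporter outside the 9 genes varied widely between arrays. Slc37a2, which exchanges glucose 6-phosphate for phosphate and stood in the colonocyte list, read 457, 2390 and 1794 in heterozygous and 673, 1590 and 33.1 in wild-type arrays. Its lowest value was in wild-type replicate 3, where Fabp6 and Apoa1 were lowest too, at 93.5 and 29.5, and where Aqp4 was highest, at 2078. The log2 difference between the genotypes was 1.75 (SE 1.12, limma adjusted p = 0.917), with overlapping groups, and 0.27 without wild-type replicate 3. Its relative Slc37a4 read 455, 399 and 461 in heterozygous and 455, 525 and 481 in wild-type arrays, a range of 0.38 log2 units over the 6 arrays.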
